A study of Homo sapiens with 9 samples.

Results

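Base excision repair and nucleotide excision repair remove damaged bases and bulky lesions from DNA, and the 37 genes described here encode their core machinery. The genes were chosen by symbol, from named DNA glycosylases, AP endonucleases, PARP enzymes, single-strand break repair factors, lesion recognition factors, TFIIH subunits and excision nucleases, out of 24204 gene symbols in the table. All 37 symbols were found, and 35 had enough signal to be tested among 11265 genes. They were measured by RNA-seq in HepG2, a human liver cancer cell line, after knockdown of TRIB3, a pseudokinase of the Tribbles family that is induced by amino acid shortage. Each of 3 groups had 3 libraries and carried a lentiviral short hairpin: shCtrl carried a control hairpin, shTRIB3-1 and shTRIB3-2 carried different hairpins against TRIB3. All groups shared the infection (48 h), the puromycin selection (48 h) and, per the labels, high-glucose DMEM with serum. The study's methods describe RNA from glutamine-deprived cells and a strand-specific kit, whereas the labels name no glutamine withdrawal and a different kit. The study's discussion, without naming these libraries, reports changed DNA repair gene expression after TRIB3 depletion in cells not deprived of glutamine. The medium at harvest is therefore not settled, and the strand setting is uncertain. Neither the labels nor the methods say whether the 3 libraries of a group were separate cultures, so p-values measure the spread between these samples, which may be technical. Whether the selected cells were pools or clones is not stated either, and with no batch labelled there are no within-batch values.

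In base excision repair, a DNA glycosylase recognises particular altered bases and cuts them from their sugar, an AP endonuclease nicks the strand at the empty site, PARP enzymes mark the nick, and XRCC1 gathers a polymerase and a ligase to close it. In nucleotide excision repair, distortions of the helix are found either by DDB and XPC complexes across the genome or by ERCC8 and ERCC6 at stalled RNA polymerase. Both routes load TFIIH, whose helicases open the strands, and the nucleases ERCC4-ERCC1 and ERCC5 cut out the damaged stretch, which is then resynthesised by replicative polymerases.

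The hairpins were aimed at separate exons of TRIB3, and their 21-base targets are printed to show that the knockdowns rest on different sequences. Capitals mark bases that match TRIB3 exactly, on the plus strand of chromosome 20 in GRCh38.
shTRIB3-1: TGGATGACAACTTAGATACCG
shTRIB3-2: GCCGTGCTCTTCCGCCAGATG
The first lies at chr20:388072-388092 in the coding part of exon 2 and is held by 4 of 4 annotated TRIB3 transcripts. The second lies at chr20:391473-391493 in the coding part of exon 3 and is held by 3 of 4. TRIB3 itself was measured as a check of the labels, at 67.9, 65.8 and 66.6 FPKM in shCtrl, 34.1, 32.7 and 34 in shTRIB3-1 and 20.6, 20.7 and 20.4 in shTRIB3-2 (FPKM, fragments scaled for gene length and for the mapped fragments of the library). The groups did not overlap, and TRIB3 stood at 50.3% of the control mean with shTRIB3-1 and 30.8% with shTRIB3-2. Library depth ran from 34206726 to 36311029 fragments. The hepatocyte markers all lay above 1 FPKM, with a summed level of 8381 to 9034 FPKM in shCtrl, 8601 to 9040 with shTRIB3-1 and 10815 to 11129 with shTRIB3-2. Most of this was ALB, at a mean of 5213 in shCtrl, and single markers moved in both directions. In the fit described below, 5 of 9 were lower and 2 higher with shTRIB3-1, beside 41.5% and 32.9% of tested genes. With shTRIB3-2, 2 were lower and 5 higher, beside 40.5% and 35.4%. Of 11 markers of other cell types, 8 stayed below 1 FPKM in every library, and the blood cell markers PTPRC and CD3E were at 0 in the controls. The 11 summed to 1085 to 1202, 537 to 564 and 634 to 674 FPKM, nearly all of it LYZ, at a mean of 1080 in shCtrl, and the part of these markers in the results was not tested. In bulk RNA, fewer cells of a type and less RNA per cell cannot be told apart.

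The excision repair genes did not move as a block. On log2(FPKM + 0.1), with limma and Benjamini-Hochberg adjustment over all tested genes, 19 members were lower, 7 higher and 9 not past an adjusted p of 0.05 with shTRIB3-1. With shTRIB3-2, 16 were lower, 7 higher and 12 not past it. Among all tested genes, 41.5% were lower and 32.9% higher with shTRIB3-1, and 40.5% were lower and 35.4% higher with shTRIB3-2, so most tested genes passed this rule in one direction or the other. The median log2 fold change of the members was -0.23 with shTRIB3-1 and -0.15 with shTRIB3-2, beside -0.06 and -0.03 over all tested genes. The libraries of the groups did not overlap in 21 members that were lower and 7 that were higher with shTRIB3-1 (43% and 34.2% of tested genes), and in 18 and 6 with shTRIB3-2 (41.3% and 36.1%). Both comparisons use the same control libraries. Passing with both hairpins were 15 members that were lower and 7 that were higher, and no member passed in opposite directions. The share of all tested genes passing with both hairpins is not given here. These counts therefore do not show whether the members differ from other genes.

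A fall of more than 2-fold was seen in few of these genes. UNG, NEIL3 and GTF2H3 passed an adjusted p of 0.05 with a log2 fold change below -1 with both hairpins. XRCC1 did with shTRIB3-2, while no member passed that size upwards. NEIL3 was tested only because its control libraries passed the filter on low values (FPKM of at least 1 in at least 3 libraries). That filter favours a fall, so NEIL3 adds no support to these counts. Of all tested genes, 6.1% were lower and 5.39% higher by this rule for the first hairpin, beside 3 and 0 of 35 members, and 6.27% and 6.06% for the second, beside 4 and 0. The 20 base excision repair members had a median log2 fold change of -0.36 with shTRIB3-1 and -0.20 with shTRIB3-2, with 11 lower and 4 higher in each. The 15 tested nucleotide excision repair members had medians of -0.18 and -0.02. Of them, 8 were lower and 3 higher with shTRIB3-1, and 5 lower and 3 higher with shTRIB3-2. The counts in both repair groups use an adjusted p under 0.05 alone. By that rule 41.5% of tested genes were lower and 32.9% higher with shTRIB3-1, and 40.5% and 35.4% with shTRIB3-2.

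**Figure D1:**
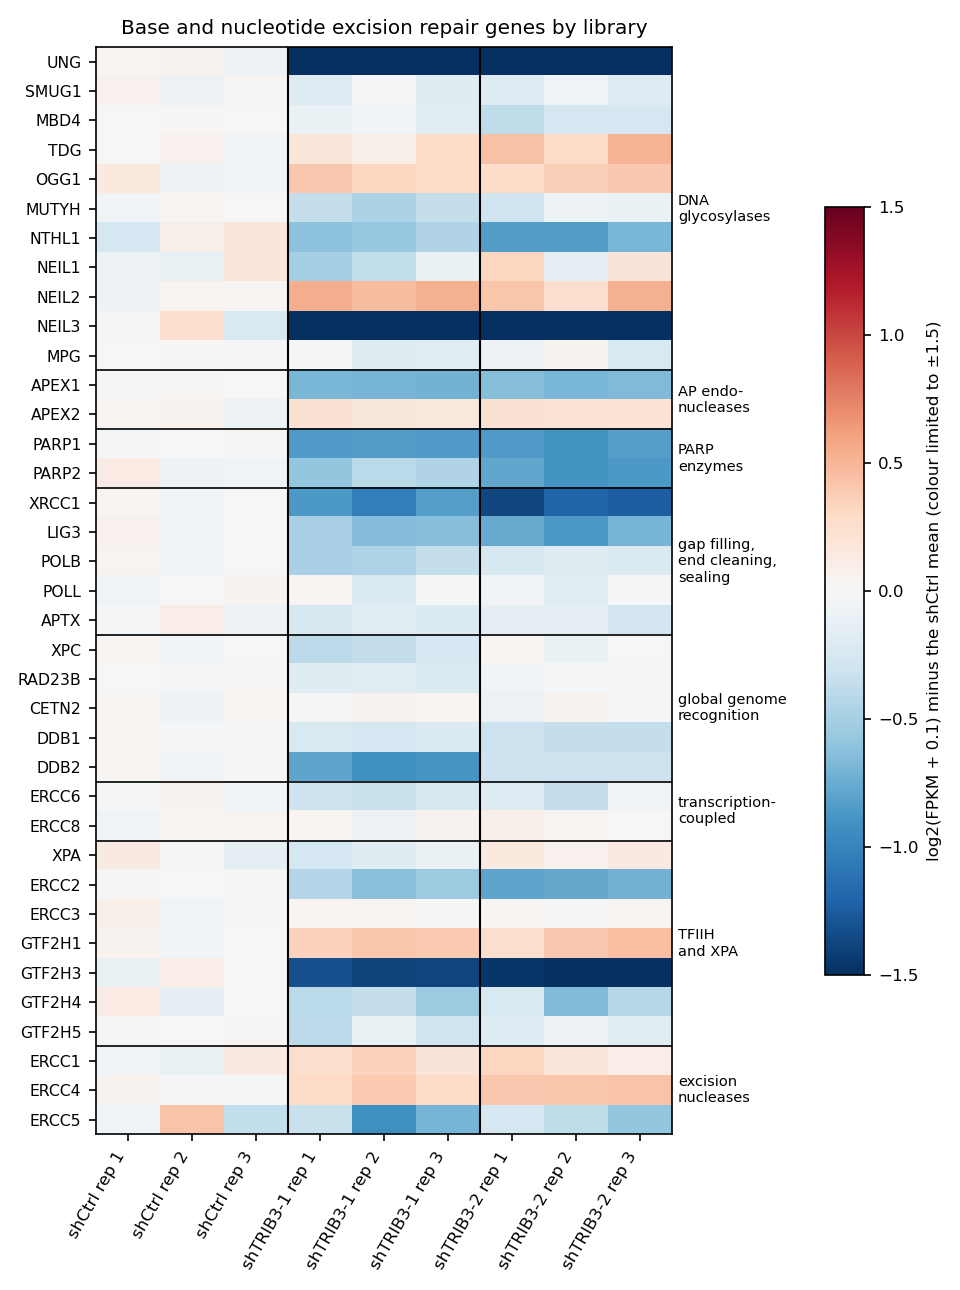
Each row is 1 of the 37 genes, grouped by role, and each column 1 of the 9 libraries. Colour gives log2(FPKM + 0.1) minus the mean of the 3 shCtrl libraries, blue for lower and red for higher, limited to ±1.5. UNG, NEIL3 and GTF2H3 are dark blue in all 6 knockdown libraries, while NEIL2, OGG1, GTF2H1 and ERCC4 are red in them.

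The DNA glycosylases, which set what kinds of damaged base can be removed, shifted in their relative levels. Of 11 glycosylases, 4 were lower, 3 higher and 4 not past the threshold with shTRIB3-1. The same counts held with shTRIB3-2, although MUTYH counted among the lower with shTRIB3-1 and MBD4 with shTRIB3-2. Among all tested genes, 41.5% were lower and 32.9% higher with shTRIB3-1, and 40.5% and 35.4% with shTRIB3-2. The counts alone thus do not set the glycosylases apart from other genes. Their summed level was 94.5 ± 1.87 FPKM in shCtrl, 74.4 ± 1.32 with shTRIB3-1 and 74.3 ± 0.99 with shTRIB3-2 (SD, n = 3 each).

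UNG, the uracil-DNA glycosylase that removes uracil misincorporated during replication or left by cytosine deamination, was the highest glycosylase in the control cells. It was at 23, 23.4 and 21.2 FPKM in shCtrl, 7.82, 7.09 and 7.47 in shTRIB3-1, and 7.17, 6.62 and 7.33 in shTRIB3-2. All 6 knockdown libraries lay below every control library, and the knockdown groups overlapped each other. On the log2 scale the change was -1.58 ± 0.056 with shTRIB3-1 (SE; limma adjusted p = 1.72e-10) and -1.66 ± 0.056 with shTRIB3-2 (limma adjusted p = 8.34e-11), and 1.92% and 2.52% of tested genes fell further. UNG made up 23.8% ± 1.1 of the summed glycosylase level in shCtrl, 10% ± 0.315 with shTRIB3-1 and 9.48% ± 0.49 with shTRIB3-2 (SD, n = 3 each). The gene lies at chr12:109097597-109126725 on the plus strand (GENCODE v44, GRCh38).

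SMUG1, a second uracil-removing glycosylase, was at 6.39 ± 0.362 FPKM in shCtrl, 5.82 ± 0.412 with shTRIB3-1 and 5.73 ± 0.3 with shTRIB3-2 (SD, n = 3 each). Its log2 changes of -0.13 (limma adjusted p = 0.0883) and -0.15 (limma adjusted p = 0.0513) did not pass, but lay near the threshold. They passed without shCtrl replicate 2 (limma adjusted p = 0.0448 and 0.027) or shTRIB3-1 replicate 2 (0.0257 and 0.0364), and the second also without shTRIB3-2 replicate 2 (0.0263). The ratio of UNG to SMUG1 within a library went from 3.27 to 3.91 in shCtrl to 1.13 to 1.41 in shTRIB3-1 and 1.09 to 1.32 in shTRIB3-2, with no overlap between control and knockdown. With 3 libraries against 3, an exact two-sided permutation test cannot go below p = 0.1, which is the value it gave for both hairpins, and no ratio in this text could reach 0.05. Over the 39 tests of 13 ratios the smallest adjusted value was 0.156.

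NEIL3, a glycosylase for oxidised bases that also unhooks interstrand crosslinks during replication, had the largest change of any member with the added constant of 0.1. It was at 1.95, 2.37 and 1.68 FPKM in shCtrl, 0.247, 0.456 and 0.207 in shTRIB3-1 and 0.136, 0.134 and 0.144 in shTRIB3-2. These values stand for 142 to 204, 17 to 37 and 11 to 12 fragments per library. The groups were separate from each other in the order shCtrl, shTRIB3-1, shTRIB3-2. In log2 terms this was a change of -2.42 ± 0.225 with shTRIB3-1 (SE; limma adjusted p = 9.66e-07) and -3.13 ± 0.225 with shTRIB3-2 (limma adjusted p = 7.87e-08). At such low values the size depends on the added constant and scaling, from -3.11 to -1.20 for the first hairpin and from -3.79 to -1.39 for the second over the alternatives. With a constant of 1, NEIL3 (-1.20 and -1.39) fell less than UNG (-1.48 and -1.55) and GTF2H3 (-1.23 and -1.42). Only the control libraries brought NEIL3 past the filter on low values. NEIL3 lies at chr4:177309874-177362936 on the plus strand.

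The remaining lower glycosylases moved by smaller amounts. NTHL1, which removes oxidised pyrimidines, went from 12.8 ± 1.97 FPKM in shCtrl to 8.71 ± 0.503 and 7.34 ± 0.45 (SD, n = 3 each), with log2 changes of -0.54 (limma adjusted p = 0.000225) and -0.79 (limma adjusted p = 8.67e-06). MUTYH, which removes adenine paired with oxidised guanine, passed with shTRIB3-1 alone (log2 fold change -0.40, limma adjusted p = 0.000249, against -0.15 and 0.063 with shTRIB3-2). MBD4, which acts on thymine and uracil opposite guanine at CpG sites, passed with shTRIB3-2 alone (-0.30, limma adjusted p = 0.00025, against -0.10 and 0.0952 with shTRIB3-1). MUTYH shares 31.6% of its exonic bases with another annotated gene on the same strand, so its level is uncertain to that extent. Its change with shTRIB3-2 passed without shTRIB3-2 replicate 2 (-0.19, adjusted p = 0.0353, limma).

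TDG, OGG1 and NEIL2 rose with both hairpins. OGG1, the main glycosylase for 8-oxoguanine, was at 6.7, 5.76 and 5.78 FPKM in shCtrl, 8.06, 7.61 and 7.44 in shTRIB3-1 and 7.36, 7.8 and 8.09 in shTRIB3-2. NEIL2, which acts on oxidised cytosines, was at 4.55, 4.94 and 4.87, then 7.02, 6.63 and 6.98, then 6.39, 5.72 and 6.96 FPKM. TDG, which removes thymine from G:T mismatches and oxidised 5-methylcytosine in DNA demethylation, was at 8.26, 8.68 and 8.03, then 9.44, 8.84 and 10.1, then 11.3, 10.2 and 11.9 FPKM. In each of the 3 genes, every knockdown library lay above every control library. The log2 fold changes with shTRIB3-1 and shTRIB3-2 were 0.34 and 0.35 for OGG1, 0.51 and 0.40 for NEIL2, and 0.18 and 0.41 for TDG, with limma adjusted p from 2.76e-05 to 0.0247. The smallest of these, TDG with shTRIB3-1, lost its call in 6 of the alternative settings, among them without shCtrl replicate 1 (adjusted p = 0.0537, limma) or replicate 3 (0.0813) and without shTRIB3-1 replicate 1 (0.0532) or replicate 3 (0.107). OGG1 shares 29% of its exonic bases with CAMK1 on the opposite strand, and without strand their reads cannot be told apart. The ratio of TDG to MBD4 went from 1.06 ± 0.0319 in shCtrl to 1.3 ± 0.139 with shTRIB3-1 and 1.75 ± 0.183 with shTRIB3-2 (SD, n = 3 each), with no overlap among the groups.

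MPG, which removes alkylated purines, and NEIL1, another glycosylase for oxidised bases, passed with neither hairpin. MPG was at 18 ± 0.24, 16.4 ± 0.982 and 17 ± 1.73 FPKM in shCtrl, shTRIB3-1 and shTRIB3-2, and became the highest glycosylase in the knockdown cells. NEIL1 was the lowest in the controls at 1.16 ± 0.142, with 0.911 ± 0.146 and 1.27 ± 0.213 in the knockdown groups (SD, n = 3 each). Both were close to a call in single fits: MPG was lower with shTRIB3-1 without shTRIB3-1 replicate 1 (adjusted p = 0.0374, limma), shTRIB3-2 replicate 2 (0.0469) or shTRIB3-2 replicate 3 (0.0374), MPG was lower with shTRIB3-2 without shTRIB3-2 replicate 2 (0.039), and NEIL1 was lower with shTRIB3-1 without shTRIB3-1 replicate 3 (0.0308). MPG shares 30.1% of its exonic bases with NPRL3 and NEIL1 30.5% with MAN2C1, both on the opposite strand.

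**Figure D2:**
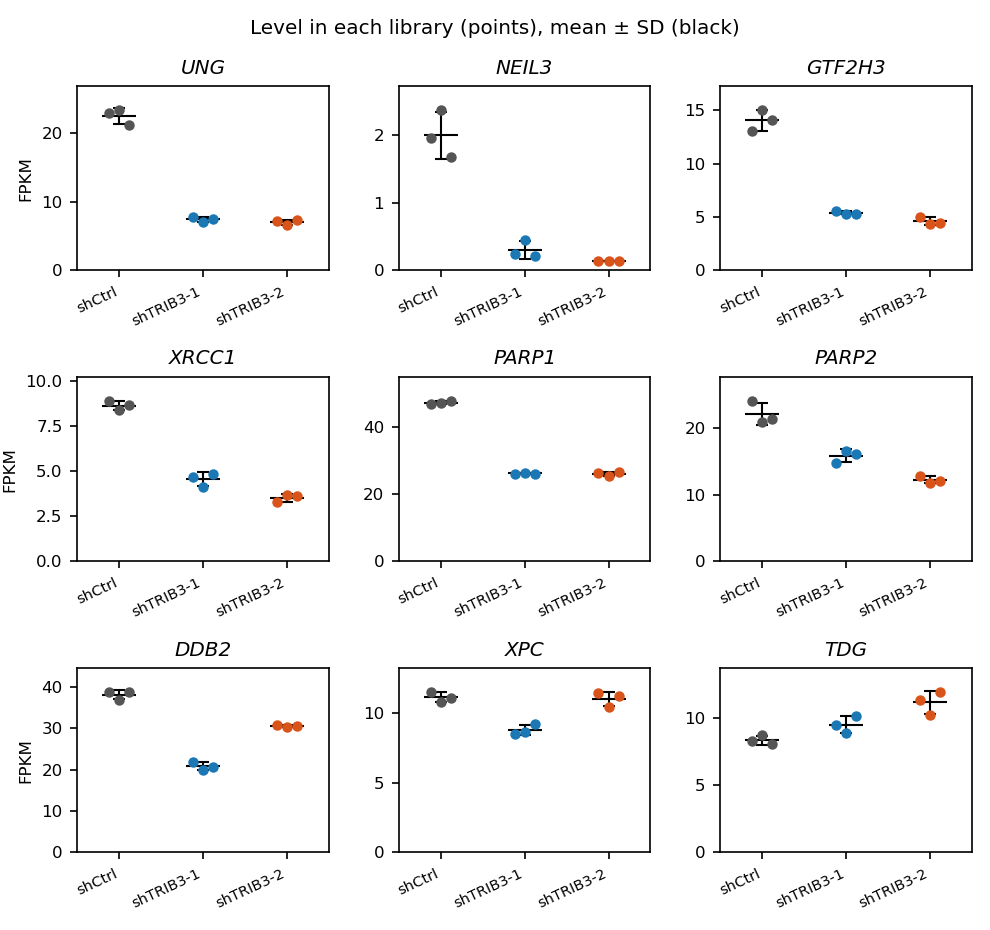
Points give FPKM in each library for 9 members, with the mean and SD of 3 libraries in black and axes from 0. UNG, NEIL3, GTF2H3 and XRCC1 fall with both hairpins, PARP1 falls with both and its knockdown groups overlap, DDB2 and XPC are lower in shTRIB3-1 than in shTRIB3-2, and TDG rises.

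After base removal, the AP endonucleases moved in opposite directions. APEX1, the main AP endonuclease and the most abundant of all members, was at 122, 125 and 123 FPKM in shCtrl, 76.8, 75.9 and 75.7 in shTRIB3-1 and 79.3, 76.5 and 77.8 in shTRIB3-2. The knockdown libraries overlapped each other and lay below the controls by log2 changes of -0.70 and -0.66 (limma adjusted p = 3.41e-10 and 4.05e-10). APEX2, a paralogue that also has a nuclease role at replication forks, rose from 6.18 ± 0.333 FPKM to 7.03 ± 0.193 and 7.16 ± 0.0842 (SD, n = 3 each; log2 fold changes 0.18 and 0.21, limma adjusted p = 0.00609 and 0.00261). Within a library APEX2 stood at 0.0501 ± 0.00268 of the APEX1 level in shCtrl, 0.0924 ± 0.00186 with shTRIB3-1 and 0.092 ± 0.000919 with shTRIB3-2.

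PARP1 and PARP2, the enzymes that bind strand breaks and attach poly(ADP-ribose) chains, were both lower. PARP1 was at 46.9, 47.2 and 47.8 FPKM in shCtrl, 26.2, 26.4 and 26.2 in shTRIB3-1 and 26.3, 25.4 and 26.6 in shTRIB3-2. Its replicates were among the tightest of all members, and the knockdown groups overlapped. This made a log2 change of -0.85 ± 0.03 with each hairpin (SE; limma adjusted p = 1.72e-10 and 1.16e-10), so PARP1 fell by less than 2-fold, and 7.95% and 8.44% of tested genes fell further. PARP1 lies at chr1:226360210-226408154 on the minus strand. PARP2 was at 24, 20.9 and 21.3 FPKM in shCtrl, 14.7, 16.6 and 16.1 in shTRIB3-1 and 12.8, 11.8 and 12.1 in shTRIB3-2. Here the 3 groups were separate, with log2 changes of -0.48 (limma adjusted p = 1.6e-05) and -0.84 (limma adjusted p = 8.17e-08). The ratio of PARP2 to PARP1 was 0.467 ± 0.0382 in shCtrl, 0.602 ± 0.0371 with shTRIB3-1 and 0.469 ± 0.017 with shTRIB3-2. The shTRIB3-1 ratios, at 0.56 to 0.631, lay above those of both other groups.

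XRCC1, the scaffold that assembles single-strand break repair, and LIG3, the ligase it stabilises, fell with both hairpins. XRCC1 was at 8.89, 8.39 and 8.65 FPKM in shCtrl, 4.7, 4.15 and 4.85 in shTRIB3-1 and 3.28, 3.71 and 3.61 in shTRIB3-2. The groups were separate in that order. On the log2 scale the change was -0.91 ± 0.0696 with shTRIB3-1 (SE; limma adjusted p = 1.57e-07) and -1.27 ± 0.0696 with shTRIB3-2 (limma adjusted p = 6.36e-09). XRCC1 lies at chr19:43543311-43580473 on the minus strand, and 20% of its exonic bases are shared with an antisense gene. LIG3 went from 3.23 ± 0.149 FPKM to 2.11 ± 0.14 and 1.85 ± 0.107 (SD, n = 3 each), with log2 changes of -0.59 and -0.77 (limma adjusted p = 2.84e-05 and 2.55e-06). It shares 30.5% of its exonic bases with RFFL on the opposite strand. LIG3 relative to XRCC1 was 0.374 ± 0.00667 in shCtrl, 0.463 ± 0.0365 with shTRIB3-1 and 0.527 ± 0.0521 with shTRIB3-2, without overlap between control and knockdown.

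The gap-filling polymerases were less affected. POLB, the main polymerase of short-patch repair, was at 23.2, 22 and 22.7 FPKM in shCtrl, 16.1, 16.4 and 17.7 in shTRIB3-1 and 19.1, 19.9 and 19.5 in shTRIB3-2. The shTRIB3-2 libraries lay between the other groups without overlap. In log2 terms this was a change of -0.44 with shTRIB3-1 and -0.21 with shTRIB3-2 (limma adjusted p = 1.32e-06 and 0.000538). POLL, a related polymerase that can stand in for it, passed with neither hairpin, at 6.45 ± 0.253, 6.13 ± 0.559 and 6.09 ± 0.271 FPKM. APTX, which clears adenylated ends left by failed ligation, went from 12.6 ± 0.842 FPKM to 11 ± 0.263 and 11.1 ± 0.607 (SD, n = 3 each; log2 fold changes -0.20 and -0.19, limma adjusted p = 0.00554 and 0.00871), a call that did not hold when each library was centred on its median (adjusted p = 0.0963 and 0.0684, limma).

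**Figure D3:**
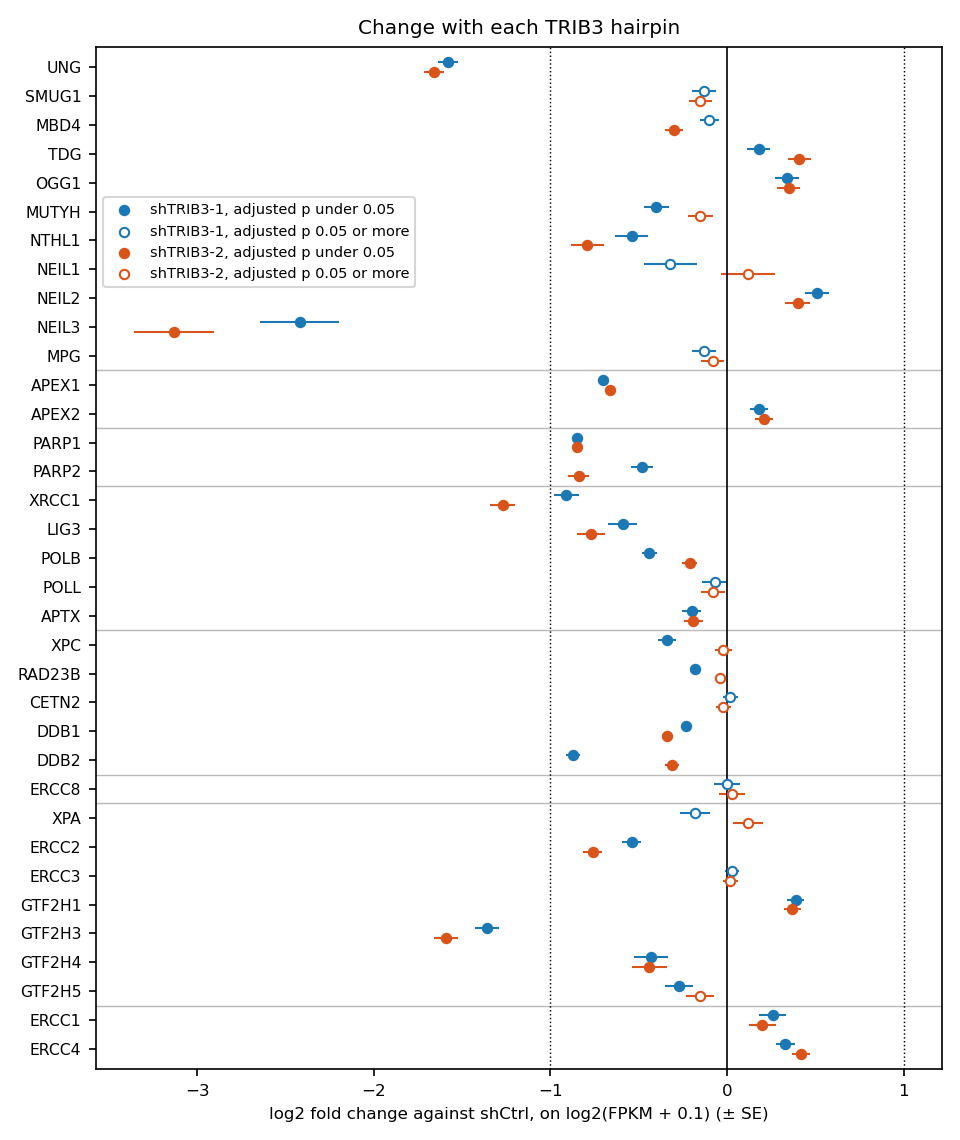
Points give the log2 fold change against shCtrl on log2(FPKM + 0.1) for the 35 tested members, with bars of 1 SE, blue for shTRIB3-1 and orange for shTRIB3-2, filled where the limma adjusted p is under 0.05. Dotted lines mark 2-fold. UNG, NEIL3 and GTF2H3 lie left of the 2-fold line with both hairpins and XRCC1 with shTRIB3-2, and no point lies right of the upper line.

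Of the 5 genes of global genome lesion recognition in nucleotide excision repair, 4 were lower with shTRIB3-1 and 2 with shTRIB3-2, beside 41.5% and 40.5% of tested genes. DDB2, the subunit of the DDB complex that binds ultraviolet photoproducts and a known p53-induced gene, was at 38.7, 36.8 and 38.6 FPKM in shCtrl, 21.9, 20 and 20.5 in shTRIB3-1 and 30.7, 30.3 and 30.6 in shTRIB3-2. The shTRIB3-2 libraries lay between the others with no overlap. This made a log2 change of -0.87 ± 0.0385 with shTRIB3-1 (SE; limma adjusted p = 1.19e-09), -0.31 ± 0.0385 with shTRIB3-2 (limma adjusted p = 1.03e-05), and 0.55 ± 0.0385 for shTRIB3-2 against shTRIB3-1 (limma adjusted p = 4.8e-07). DDB1, its partner and an adaptor of CUL4 ubiquitin ligases, went from 82.6 ± 1.72 FPKM in shCtrl to 70.4 ± 0.927 and 65.1 ± 0.678 (SD, n = 3 each; log2 fold changes -0.23 and -0.34, limma adjusted p = 1.03e-05 and 2.37e-07). Between the hairpins its level was lower in shTRIB3-2 (log2 difference -0.11, limma adjusted p = 0.00559), which missed the threshold after rescaling to TPM (-0.08, 0.0549). DDB2 relative to DDB1 was 0.449 to 0.475 in shCtrl, 0.287 to 0.311 with shTRIB3-1 and 0.467 to 0.473 with shTRIB3-2. DDB2 lies at chr11:47214465-47239217 on the plus strand.

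XPC, which detects helix distortion and is also known as p53-induced, was at 11.5, 10.8 and 11.1 FPKM in shCtrl, 8.47, 8.66 and 9.22 in shTRIB3-1 and 11.4, 10.4 and 11.2 in shTRIB3-2. Only the shTRIB3-1 libraries stood apart, with a log2 fold change of -0.34 (limma adjusted p = 4.97e-05) against -0.02 with shTRIB3-2 (limma adjusted p = 0.726), and the hairpins differed by 0.32 (limma adjusted p = 0.000261). XPC shares 24.6% of its exonic bases with the antisense gene XPC-AS1. RAD23B, which stabilises XPC, had the same form at a small size, at 83.2 ± 1.36, 73.4 ± 1.04 and 81.2 ± 0.888 FPKM (SD, n = 3 each), with log2 changes of -0.18 (limma adjusted p = 6.53e-05) and -0.04 (limma adjusted p = 0.253). CETN2, the third subunit of the XPC complex, did not pass, at 27.8 ± 1.2, 28.3 ± 0.786 and 27.5 ± 1.34 FPKM.

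Of the transcription-coupled factors, ERCC8 did not pass and ERCC6 was too low to be tested. ERCC8, the Cockayne syndrome A protein, was at 2.36 ± 0.0951, 2.36 ± 0.125 and 2.42 ± 0.072 FPKM (SD, n = 3 each; log2 fold changes 0.00 and 0.03, limma adjusted p = 0.994 and 0.687). ERCC6, the Cockayne syndrome B translocase, was below the filter at 0.607, 0.641 and 0.594 FPKM in shCtrl, 0.475, 0.465 and 0.504 in shTRIB3-1 and 0.523, 0.455 and 0.588 in shTRIB3-2. These rest on 485 to 713 fragments per library, since the gene length behind its FPKM is 30621 bases, longer than the 23104 exonic bases of the annotation. Every knockdown library lay below every control. With no filter, its log2 fold changes were -0.30 and -0.20 (limma adjusted p = 0.122 and 0.304).

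TFIIH, the complex that opens DNA in repair and also starts transcription, showed unequal changes among its subunits. GTF2H3, the p34 core subunit, was at 13, 15 and 14.1 FPKM in shCtrl, 5.57, 5.28 and 5.32 in shTRIB3-1 and 5.04, 4.35 and 4.44 in shTRIB3-2. The groups were separate, and the knockdown libraries lay close together. On the log2 scale the change was -1.36 ± 0.0668 with shTRIB3-1 (SE; limma adjusted p = 2.77e-09) and -1.59 ± 0.0668 with shTRIB3-2 (limma adjusted p = 5.99e-10), with 2.9% and 2.81% of tested genes falling further. GTF2H3 lies at chr12:123633739-123662604 on the plus strand. ERCC2, the XPD helicase that checks for damage, was at 9.24, 9.13 and 8.99 FPKM in shCtrl, 6.7, 5.87 and 6.2 in shTRIB3-1 and 5.23, 5.3 and 5.52 in shTRIB3-2, with log2 changes of -0.54 and -0.76 (limma adjusted p = 2.11e-06 and 7.85e-08). ERCC3, the XPB translocase of the same core, was at 23.1 ± 1.24, 23.5 ± 0.0884 and 23.5 ± 0.537 FPKM (SD, n = 3 each; limma adjusted p = 0.577 and 0.596). ERCC2 relative to ERCC3 went from 0.395 ± 0.0176 to 0.266 ± 0.018 and 0.228 ± 0.00666, with no overlap among the groups.

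GTF2H1, the p62 subunit that XPC binds, rose with both hairpins, from 19.6, 18.3 and 18.8 FPKM in shCtrl to 24.1, 25.3 and 24.8 in shTRIB3-1 and 22.7, 25.1 and 25.8 in shTRIB3-2. All knockdown libraries lay above the controls (log2 fold changes 0.39 and 0.37, limma adjusted p = 1.35e-05 and 1.68e-05). GTF2H4, the p52 subunit, fell by 0.43 and 0.44 on the log2 scale (limma adjusted p = 0.00165 and 0.00135), but 79.7% of its exonic bases belong also to another annotated gene on the same strand, so its level is uncertain. GTF2H5, the smallest subunit, passed with shTRIB3-1 alone (log2 fold changes -0.27 and -0.15, limma adjusted p = 0.00795 and 0.114). The 4 other subunits, added here, are GTF2H2, CDK7, CCNH and MNAT1, of which GTF2H2 has near-identical copies and is uncertain. Of the 10 genes of the complex, 5 were lower and 1 higher with shTRIB3-1, and 4 were lower and 1 higher with shTRIB3-2. Both counts of lower genes include GTF2H4. Beside them, 41.5% of tested genes were lower and 32.9% higher with shTRIB3-1, and 40.5% and 35.4% with shTRIB3-2. Of the added genes only CDK7, the kinase, passed with both (log2 fold changes -0.32 and -0.40, limma adjusted p = 0.0017 and 0.000299). XPA, which verifies the lesion beside TFIIH, was at 2.92 ± 0.295, 2.56 ± 0.149 and 3.17 ± 0.109 FPKM and passed against shCtrl with neither hairpin. It passed as lower with shTRIB3-1 without shCtrl replicate 3 (-0.26, adjusted p = 0.0178, limma) and after rescaling to TPM (-0.24, 0.0303), and as higher with shTRIB3-2 under quantile normalization (0.19, 0.0472).

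The excision nucleases rose slightly where they could be tested. ERCC4, the catalytic XPF subunit, was at 4.35, 4.11 and 4.13 FPKM in shCtrl, 5.18, 5.52 and 5.19 in shTRIB3-1 and 5.59, 5.64 and 5.69 in shTRIB3-2. The groups were separate, with log2 changes of 0.33 and 0.42 (limma adjusted p = 0.000114 and 1.32e-05). ERCC4 shares 14.1% of its exonic bases with an antisense gene. ERCC1, its partner, went from 5.44 ± 0.466 FPKM to 6.55 ± 0.367 and 6.26 ± 0.515 (SD, n = 3 each; log2 fold changes 0.26 and 0.20, limma adjusted p = 0.00733 and 0.0317). Its call with shTRIB3-2 was lost without shCtrl replicate 1 (adjusted p = 0.0822, limma) or replicate 2 (0.124) and without shTRIB3-2 replicate 1 (0.141) or replicate 2 (0.0521), and it shares 28.6% of its exonic bases with POLR1G on the opposite strand. ERCC5, the XPG nuclease, was near the limit of detection at 14 to 60 fragments per library and 0.3 ± 0.114, 0.152 ± 0.0536 and 0.195 ± 0.0324 FPKM, and its groups overlapped. ERCC5 shares 33% of its exonic bases with BIVM-ERCC5 on the same strand, so its low level is uncertain to that extent.

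Directly compared, the hairpins differed in 15 of 35 members, beside 45.8% of tested genes: 7 were lower and 8 higher in shTRIB3-2 than in shTRIB3-1 at a limma adjusted p under 0.05. The background was 20.7% of tested genes lower and 25.1% higher, and no member passed 2-fold, beside 2.08% of tested genes. MBD4, NEIL3, PARP2, XRCC1, DDB1, ERCC2 and GTF2H3 were lower in shTRIB3-2, the group with less TRIB3. TDG, MUTYH, NEIL1, POLB, XPC, RAD23B, DDB2 and XPA were higher in it, and 5 of these (MUTYH, POLB, XPC, RAD23B and DDB2) had fallen with shTRIB3-1. The largest differences were those of NEIL3 at -0.71 ± 0.225 (SE; limma adjusted p = 0.0222) and DDB2 at 0.55. The NEIL3 difference did not hold without shTRIB3-1 replicate 2 (-0.45, adjusted p = 0.0868, limma), without shTRIB3-2 replicate 2 (-0.70, 0.0518) or with a pseudocount of 1 (-0.19, 0.116). It was also lost under quantile normalization (-0.14, adjusted p = 0.726, limma), with no filter on low values (0.0687) and with only the 2 groups compared (0.0516). That of GTF2H3 was lost without shTRIB3-1 replicate 1 (-0.20, adjusted p = 0.0578, limma), shTRIB3-2 replicate 2 (-0.18, 0.0602) or shTRIB3-2 replicate 3 (-0.20, 0.0585). Without shTRIB3-1 replicate 2 or shTRIB3-2 replicate 3, those of TDG (limma adjusted p = 0.0526 and 0.057) and MUTYH (0.0543 and 0.0532) were also lost, and that of NEIL1 was lost without shTRIB3-1 replicate 1 (0.113) or 2 (0.0801) and without shTRIB3-2 replicate 1 (0.123) or 3 (0.0897). NTHL1, at -0.24 (limma adjusted p = 0.0527), passed without shCtrl replicate 1 (0.00529), shCtrl replicate 3 (0.0336) or shTRIB3-2 replicate 3 (0.0482). UNG, APEX1, PARP1, GTF2H1 and ERCC3 had hairpin differences between -0.08 and 0.03 on the log2 scale, with limma adjusted p from 0.251 to 0.984.

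**Figure D4:**
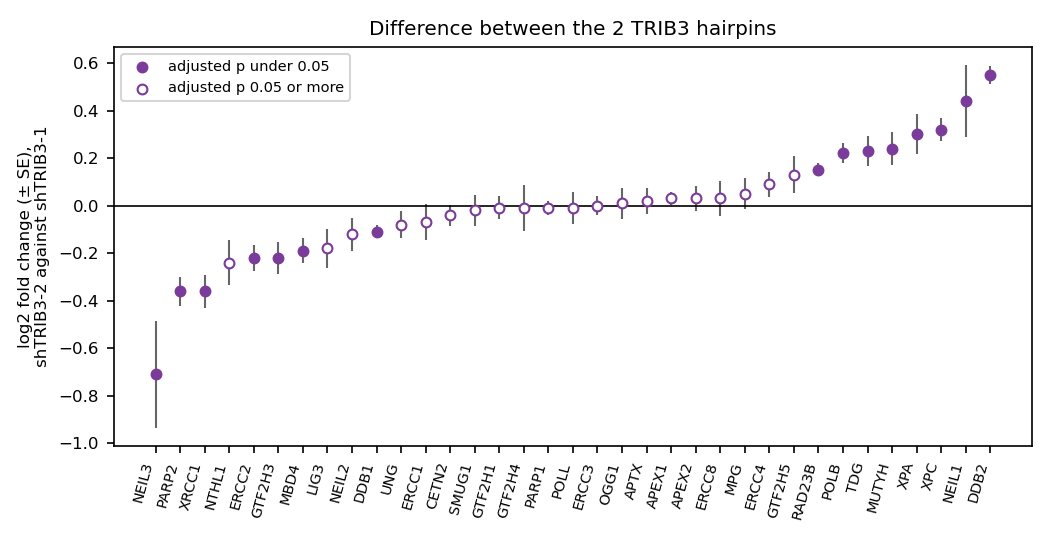
Points give the log2 fold change of shTRIB3-2 against shTRIB3-1 for the 35 tested members in order of size, with bars of 1 SE, filled where the limma adjusted p is under 0.05. NEIL3 lies lowest at -0.71 and DDB2 highest at 0.55, and 20 members are open.

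The steps after excision are shared with DNA replication, and the median change of their genes lay further below 0 than that of the members, a difference given here without a test. Of all tested genes, 41.5% were lower and 32.9% higher with shTRIB3-1, and 40.5% and 35.4% with shTRIB3-2. Of 20 resynthesis and ligation genes that are not members, 16 were lower and 2 higher with shTRIB3-1, and 17 lower and 1 higher with shTRIB3-2. The median log2 changes of these 20 genes were -1.09 and -1.40. Their summed level was 464 to 471 FPKM in shCtrl, 239 to 247 with shTRIB3-1 and 206 to 208 with shTRIB3-2. PCNA, the sliding clamp, went from 219 ± 3.46 FPKM to 72.4 ± 3.14 and 56.4 ± 1.25, and FEN1, the flap nuclease of long-patch base excision repair, from 23.9 ± 0.986 to 7.8 ± 0.747 and 4.1 ± 0.0701 (SD, n = 3 each). The clamp loader subunits RFC3 and RFC5 fell to 1.06 ± 0.0269 and 1.66 ± 0.0804 FPKM with shTRIB3-1, from 3.22 ± 0.0472 and 5.19 ± 0.665. POLD4, a small subunit of DNA polymerase delta, rose with both hairpins, from 14.2 ± 0.809 to 23.8 ± 0.517 and 29.3 ± 0.676 FPKM, and the translesion polymerase POLK rose with shTRIB3-1 (log2 fold change 0.32, limma adjusted p = 0.00614).

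Among 20 other excision repair and strand break genes, 18 were tested. With shTRIB3-1, 10 were lower and 4 higher, and with shTRIB3-2, 10 were lower and 3 higher, with median log2 changes of -0.20 and -0.36. The shares of all tested genes lower and higher were 41.5% and 32.9% with shTRIB3-1, and 40.5% and 35.4% with shTRIB3-2. HMGB1, a chromatin protein and repair cofactor with many processed pseudogenes, went from 26.7 ± 0.812 FPKM to 8.81 ± 0.469 and 8.2 ± 0.452. TDP2, which frees DNA ends from trapped topoisomerase, went from 61.2 ± 1.4 to 31.3 ± 0.335 and 30.4 ± 0.924, and HPF1, the cofactor that directs PARP1 to serine, from 5.08 ± 0.23 to 3.18 ± 0.691 and 2.88 ± 0.51 (SD, n = 3 each). CETN3, a centrin related to CETN2, went from 5.88 ± 0.541 to 2.67 ± 0.128 and 1.81 ± 0.0473 FPKM, while CETN2 itself did not pass.

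Markers of proliferating cells were read beside these genes. All 12 proliferation markers were lower with both hairpins, beside 41.5% of tested genes with shTRIB3-1 and 40.5% with shTRIB3-2. The median log2 changes of the markers were -2.0 and -3.35. Between the hairpins, 11 markers were lower and 1 higher in shTRIB3-2, with a median log2 difference of -1.13. For the members it was -0.01, with 7 lower and 8 higher, beside 20.7% and 25.1% of tested genes. Their summed level was 531 to 533 FPKM in shCtrl, 148 to 159 with shTRIB3-1 and 91.6 to 100 with shTRIB3-2. None of the 12 was at 0 in all libraries. UNG, NEIL3, FEN1 and PCNA are known to be higher in dividing cells. The part of proliferation in the falls of UNG, NEIL3, XRCC1, PARP1 and GTF2H3 was not tested.

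**Figure D5:**
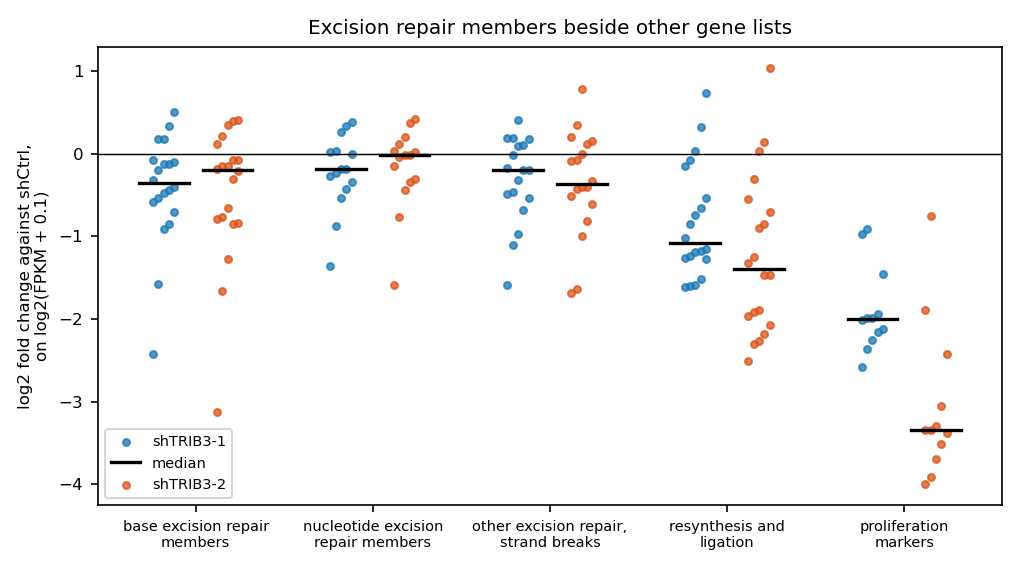
Points give the log2 fold change of each tested gene against shCtrl on log2(FPKM + 0.1), blue for shTRIB3-1 and orange for shTRIB3-2, and black bars give list medians. The members' medians lie between -0.36 and -0.02, the resynthesis and ligation genes at -1.09 and -1.40, and the proliferation markers at -2.0 and -3.35.

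The 250 bases before the start sites of the members were read from RefSeq (GRCh38.p14), where 34 of the 37 had an entry, with 47 windows in all. The NEIL3 window is printed since NEIL3 fell past 2-fold with both hairpins and its window holds no annotated exon. It covers chr4:177309624-177309873 on the plus strand, and capitals mark a G-quadruplex pattern (4 runs of GGG with loops of 1 to 7 bases) and the word TTTGAA, the core of the element bound by DREAM and MuvB complexes in cell cycle genes.
NEIL3: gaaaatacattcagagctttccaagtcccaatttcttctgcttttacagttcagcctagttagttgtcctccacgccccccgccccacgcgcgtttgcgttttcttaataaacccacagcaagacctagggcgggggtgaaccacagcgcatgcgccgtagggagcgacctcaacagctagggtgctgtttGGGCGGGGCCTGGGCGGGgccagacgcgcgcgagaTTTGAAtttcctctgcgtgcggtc
The window before the first UNG start, at chr12:109097347-109097596, holds no annotated exon and none of the 3 motifs searched. The part without exons of the window before the second UNG start, at chr12:109097922-109098117 on the plus strand, is printed since it holds all 3. Capitals mark TTTGAA on the other strand, a G-quadruplex pattern and an E2F-type word.
UNG: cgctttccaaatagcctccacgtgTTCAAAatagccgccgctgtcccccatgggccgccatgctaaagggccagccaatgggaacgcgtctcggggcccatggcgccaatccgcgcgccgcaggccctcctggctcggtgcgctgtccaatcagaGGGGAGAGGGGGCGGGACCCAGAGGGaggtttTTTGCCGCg
Both strands were searched. The E2F-type words TTTCCCGC, TTTCGCGC, TTTGCCGC and TTTGGCGC occurred before 2 of the 34 member genes (5.88%), UNG and XPC, beside 5.71% of tested genes with an entry. TTTGAA occurred before 6 members (17.6%, beside 11.8%), among them UNG, NEIL3 and XRCC1, which fell with both hairpins, and ERCC1, which rose. The G-quadruplex pattern occurred before 7 members (20.6%, beside 38.7%). These were UNG and NEIL3, which fell with both hairpins, GTF2H1, which rose, and RAD23B, which was lower with shTRIB3-1 alone. The others were MPG, NEIL1 and POLL, which passed with neither hairpin. The window of GTF2H3, which also fell past 2-fold with both hairpins, held none of the 3 motifs. These matches are descriptions of the letters, and no binding was measured.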

How the data were processed

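RNA-seq FPKM values, computed and deposited by the authors, were used as 1 column per library and 1 row per gene symbol. Per the methods, reads were aligned to GRCh38 with STAR; the submitters' processing notes name HTSeq and R 3.2.0. The annotation release and strand setting are not given in the sources used here. FPKM does not correct for composition, so large rises of abundant genes lower other values. Whole fragments were recovered from the FPKM steps (100% of 172769 values within 0.02), giving the depths stated. Genes with FPKM of at least 1 in at least 3 libraries were fitted with limma 3.58.1 in R 4.3.3 on log2(FPKM + 0.1), 3 group means, mean-variance trend, two-sided, with Benjamini-Hochberg adjustment over 11265 genes, after a test on simulated data. Calls used an adjusted p under 0.05, with or without an absolute log2 fold change above 1. Members with a change past 2-fold, and PARP1, were described in full, and others within their role. Context genes named were those with the largest mean change, with exceptions picked after their values were seen. The members and lists were chosen with earlier results of these data known. Replicate pairs differed by more than sampling noise (chi-square per degree of freedom 3.13 to 7.54). No pair of same-numbered libraries had deviations correlated above 0.1 (-0.0742 to 0.0933), and the main fit did not use numbers as pairs. In 12 of 18 cases, though, a library correlated best with its own number in another group, so pairing by number is not excluded. Positions and overlaps are from GENCODE v44. Other pseudocounts, filters, scalings, voom, a replicate block and leaving out each library were tried.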

Additional observations from a re-analysis of the deposited data

Results flagged for a closer look

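The effects of the 2 hairpins differed by at least 0.3 on the log2 scale, by the direct limma comparison of shTRIB3-2 with shTRIB3-1, in 7 members. The share of all tested genes past this size is not given here, so the count does not set the members apart. At an adjusted p under 0.05 alone, 45.8% of tested genes differed between the hairpins. DDB2 was higher in shTRIB3-2 by 0.55 (limma adjusted p = 4.8e-07), NEIL1 by 0.44 (0.0319), XPC by 0.32 (0.000261) and XPA by 0.30 (0.0113). The difference was downward for NEIL3, at -0.71 (limma adjusted p = 0.0222), PARP2, at -0.36 (0.000471), and XRCC1, at -0.36 (0.00126). NEIL1 rests on 123 to 227 fragments per library and XPA on 232 to 323, and the NEIL1 libraries of the 2 hairpins overlapped at 1.04 and 1.07 FPKM. The NEIL1 difference was lost without shTRIB3-1 replicate 1 (0.35, adjusted p = 0.113, limma) or replicate 2 (0.42, 0.0801) and without shTRIB3-2 replicate 1 (0.35, 0.123) or replicate 3 (0.41, 0.0897), and with no filter on low values (0.44, 0.0955). The NEIL3 difference was lost without shTRIB3-1 replicate 2 (-0.45, adjusted p = 0.0868, limma) or shTRIB3-2 replicate 2 (-0.70, 0.0518), with a pseudocount of 1 (-0.19, 0.116), under quantile normalization (-0.14, 0.726), with no filter on low values (-0.71, 0.0687) and with only the 2 groups compared (-0.71, 0.0516).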

How the results depend on the processing

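Across 10 alternatives and 9 fits without 1 library each, no member's fold change reversed while called. The side of the threshold held in every fit made for them for 25 of 35 members with shTRIB3-1, 29 with shTRIB3-2 and 27 between the hairpins, with 28 of the 35 fitted where FPKM of at least 5 was required. Between the hairpins, 1 member was past 2-fold in place of 0 with a pseudocount of 0.01 and with limma voom on recovered fragments, and 5 members were higher in place of 8 where FPKM of at least 5 was required. Without 1 library, members higher ranged from 6 to 7 with shTRIB3-1, 6 to 7 with shTRIB3-2 and 5 to 8 between the hairpins (5 without shTRIB3-1 replicate 2 or shTRIB3-2 replicate 3), and members lower from 19 to 20, 16 to 19 and 5 to 8. The replicate number as a block (replicate block) lost no member's call and added 1, NTHL1 between the hairpins (-0.24, limma adjusted p = 0.0127), and in 12 of 18 cases a library correlated best with its own number in another group. Rescaling to TPM moved the median of all genes to -0.11 with shTRIB3-1, where TDG (0.13, adjusted p = 0.135, limma) and APEX2 (0.13, 0.0538) then missed the threshold while MPG, SMUG1, MBD4, NEIL1 and XPA passed it as lower. The causes were not tested. At this depth NEIL3 and ERCC5 are limited by counting.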

Other observations

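Several members start beside another protein-coding gene on the opposite strand, and these neighbours were looked at after the members' values were seen. Of 11 members with a tested neighbour whose start lies within 1000 bases, 3 passed in the same direction as the neighbour and 2 in opposite directions with shTRIB3-1, and 1 and 1 did with shTRIB3-2. Among 825 such pairs of tested genes, 34.7% passed in the same direction and 19.2% in opposite directions with shTRIB3-1, and 34.2% and 20.4% with shTRIB3-2. GTF2H3 starts 27 bases from EIF2B1, a translation initiation factor subunit, whose log2 changes were -0.13 and -0.38 (limma adjusted p = 0.0252 and 1.07e-05) beside -1.36 and -1.59 for GTF2H3. APEX1 starts 102 bases from OSGEP, a tRNA-modifying enzyme, with log2 changes of 0.07 and 0.23 (limma adjusted p = 0.315 and 0.00311) beside -0.70 and -0.66 for APEX1. XPC and its neighbour LSM3, an RNA-binding protein of the LSM ring, were both lower with shTRIB3-1, at -0.34 and -0.42, while with shTRIB3-2 LSM3 was at -0.69 and XPC at -0.02 on the log2 scale.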
